A study of Mus musculus with 5 samples.

Results

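The genes of the cytosolic ribosomal proteins were followed in the atria of mice that carry 1 altered copy of Mrc2 and of wild-type mice. Members were chosen by symbol alone: every gene of the authors' deposited comparison table whose mouse symbol has the form of a ribosomal protein name of the small subunit (Rps, Rpsa) or the large subunit (Rpl, Rplp), with the Rps6k kinases and the symbols ending in -ps left out. This gave 88 genes, 35 of the small and 53 of the large subunit, of 14927 genes in that table and 57186 genes in the per-library tables. The symbol pattern uses no measured value, but the deposited table holds only part of the genes. Rpl10l and Rpl39l, with 0 to 2 counts per library, fit the pattern and are not members.

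The study concerns an inherited variant in MRC2, a collagen-binding endocytic receptor known from fibroblasts, and atrial fibrillation susceptibility. Its 8 wild-type and 7 heterozygous animals were 4 to 10 months old, and the atria were frozen in liquid nitrogen at once. The libraries analysed here are those of heterozygotes 5, 6 and 7 (genotype MRC2 E990G-het, called het) and of wild-type animals 7 and 8 (called WT), and all 5 belong to batch 2 of the labels. Each library was made from polyA-selected RNA of the paired atria of 1 animal. The labels name no promoter, Cre or treatment, and neither the sex nor the age of a single animal is in the labels used here.

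RSEM expected counts summed to between 17784601 (WT 8) and 28353091 (het 7) per library, and the members took between 350481 (het 6) and 545437 (WT 7) of them. Mitochondrially encoded genes held 12.98% to 17.7% of the counts. All 7 atrial cardiomyocyte markers were detected, with summed levels of 78998 to 93375 TPM (transcripts per 1e6 transcripts) in het and 104731 and 115659 TPM in WT. The library WT 7 stood apart in sex-linked transcripts, with 938 counts of the Y-linked Ddx3y and 22 of Xist, against 0 to 3 and 6117 to 15280 in the other 4 libraries. With whole atria, fewer cells of a type and less RNA per cell cannot be told apart.

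Ribosomal proteins are the protein part of the ribosome, whose small subunit reads the mRNA and whose large subunit joins the amino acids. They are made from very abundant, short mRNAs in near-equal numbers, and a cell that grows, as a cardiomyocyte does under load, raises its ribosome content. Most of these mRNAs begin with a 5′ terminal oligopyrimidine tract, a C followed by a run of pyrimidines, through which mTORC1 and the LARP1 protein control their translation. That control acts on translation and on the stability of the mRNA, so mRNA levels alone do not give protein output.

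The first 30 bases of the leading transcript (the one with the highest mean TPM) are shown for 6 members that the results below turn on: 3 of the 5 most abundant, the paralogue of one of them (Rps27l), and the pair Rpl22 and Rpl22l1. They are read from GENCODE M21 on GRCm38, while the deposited values were made on GRCm39, so the positions belong to GRCm38 only. Each window is the start of exon 1, and capitals mark a C followed by at least 4 pyrimidines that starts within the first 10 bases.
Rpl13a: agaaaccctgcgacaagacctcctcctttc
Rplp1: gatCTTTTCCTCagctgccgccaaggtgct
Rps27: gCTCCTTTCCggcggtgacgacctccctac
Rps27l: gCCTCTatcccggaagttgctgaggggcgc
Rpl22: gCCCCCCTCCCTTTCTgcctcctctgccgc
Rpl22l1: gcacgtttttatataaaagcgtgcgtgcgg
Rpl13a lies at chr7:45128732-45128761 on the minus strand, Rplp1 at chr9:61914513-61914542 on the minus strand and Rps27 at chr3:90213622-90213651 on the minus strand. Rps27l lies at chr9:66946086-66946115, Rpl22 at chr4:152325853-152325882 and Rpl22l1 at chr3:28805469-28805498, all on the plus strand. Rpl22 has a run of 15 pyrimidines starting at its base 2, whereas the Rpl22l1 and Rpl13a windows hold no such run that starts in the first 10 bases. Annotated starts can lie a few bases from the used start, so a match or its absence describes these letters only. On the transcript strand, a C followed by at least 4 pyrimidines stood at base 1 in 10 of 88 members (11.4%), against 2.38% of 16129 tested genes with an annotated leading transcript. Within the first 10 bases it began in 29 of 88 members (33.0%), against 16.5% of those genes.

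No ribosomal protein gene passed the test between het and WT, yet nearly all had fold changes on the same side. Of 87 members tested (Rpl37rt, a retrotransposed copy, had too few counts), 0 were called higher and 0 lower by edgeR at an adjusted p under 0.05, where 2.99% of all 16412 tested genes were called higher and 2.66% lower. The log2 fold change, het against WT, was below 0 in 85 members and above 0 in 2 (Rpl7l1 and Rps27rt), while 50.1% of all tested genes were below 0. The median over members was −0.31, with a range of −0.79 to 0.02 and a median SE of 0.18, beside a median of −0.001 over all tested genes. At an unadjusted p under 0.05, 17 of 87 members were lower and 0 higher, against 11.9% and 12.9% of all tested genes. Members rise and fall together between libraries, so a count of signs over members is not a count of independent observations. DESeq2 on the same counts called 4 members lower, Rps2, Rpl8, Rps4l and Rplp2, where it called 4.75% of all tested genes lower. edgeR on every gene with a count called 9 of 88 lower (2.87% of 31569 genes were), and 2 of the 9, Rps4l and Rplp2, were among those 4.

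**Figure D1:**
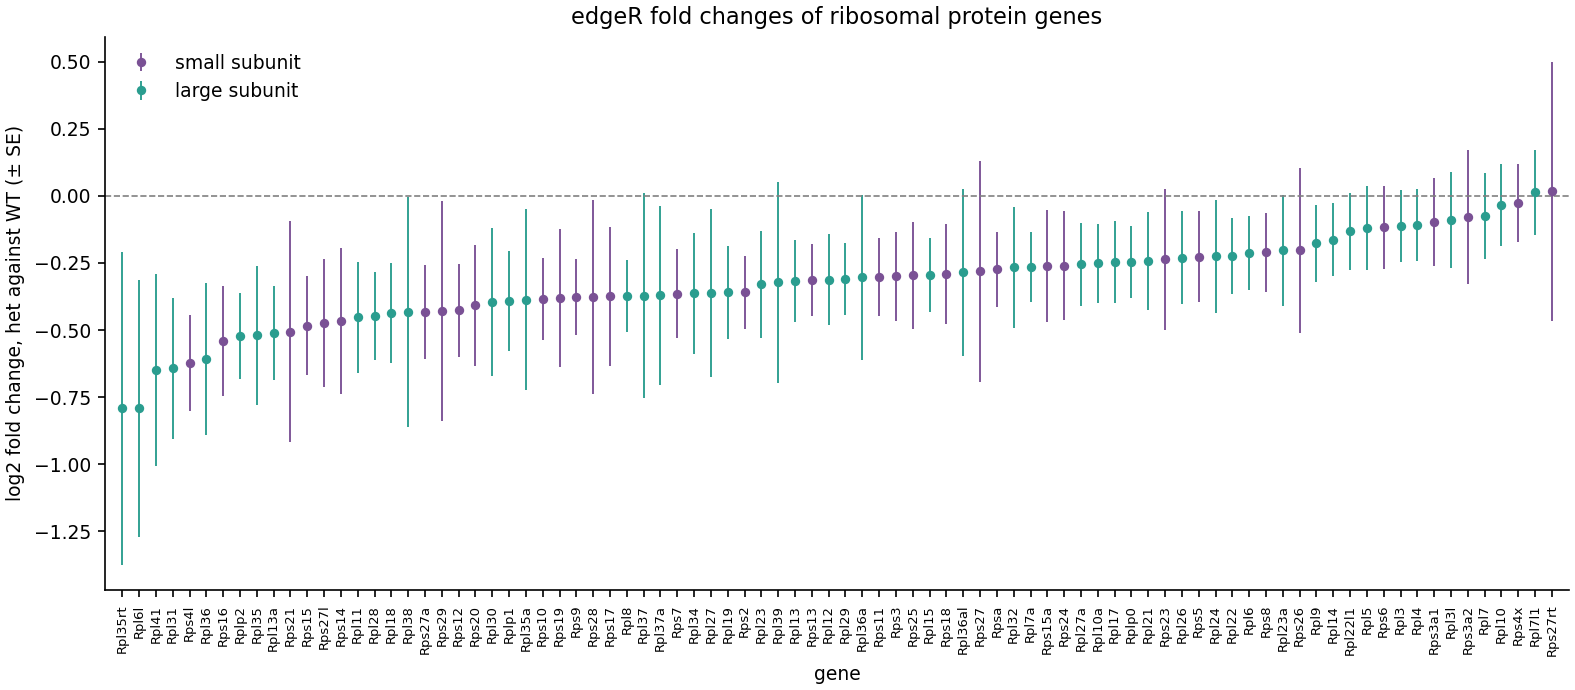
Log2 fold change, het against WT, of 86 tested ribosomal protein genes (vertical axis, edgeR, points with ± 1 SE), ordered along the horizontal axis and coloured by subunit. All but Rpl7l1 and Rps27rt lie below 0, both subunits are spread over the whole order, and no gene passes an adjusted p of 0.05.

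The library values show that the downward shift was not shared by the 3 het animals. Against the mean of the 2 WT libraries, the median log2 level of the members, in CPM (counts per 1e6 counts, scaled by edgeR's TMM factors), was 0.01 in het 5, −0.55 in het 6 and −0.50 in het 7. The WT libraries themselves lay at 0.09 (WT 7) and −0.09 (WT 8). Thus het 5 lay between the WT libraries, and het 6 and het 7 lay below both. In het 5, 48 of 87 members stood above the WT mean, against 49% of all tested genes, whereas this held for 1 member in het 6 and 1 in het 7, where 49.6% and 48.5% of all tested genes did. The highest CPM of a member was in WT 7 for 47 members, in het 5 for 20, in WT 8 for 19 and in het 7 for 1. The lowest was in het 6 for 56 members, in het 7 for 30 and in WT 7 for 1. All 3 het values lay below both WT values in 23 members and above both in 0, against 21.1% of all tested genes for each direction, so the count of lower members is near its background and the count of higher members is below its own. Leaving out het 5 moved the median of the members from −0.31 to −0.53, with 0 calls and 66 members lower at an unadjusted p under 0.05 (11.2% of all genes tested there were). Without het 6 the median was −0.21, and without WT 7 it was −0.22.

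**Figure D2:**
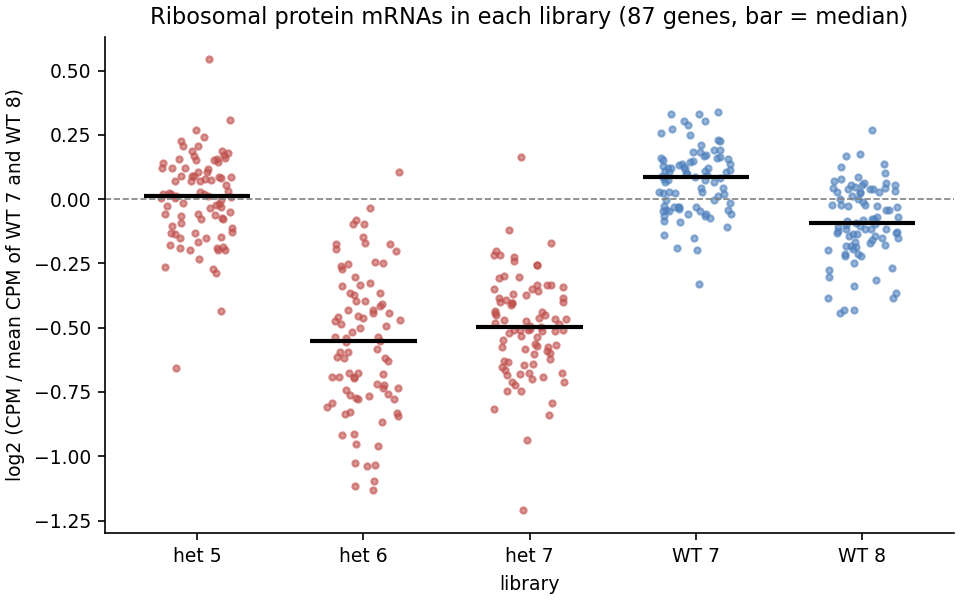
Level of each ribosomal protein gene in each of the 5 libraries, as log2 CPM over the mean of the 2 WT libraries (vertical axis, 1 point per gene, line at the median). The cloud of het 5 sits around 0 with the WT libraries, while those of het 6 and het 7 are centred at −0.55 and −0.50.

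Per length, het 6 and het 7 again lay lowest, and het 5 highest. TPM divides a count by the effective length of the transcript, so it can compare levels between genes. The members together held 6.37%, 5.46% and 5.27% of all TPM in het 5, 6 and 7, and 6.20% and 6.10% in WT 7 and 8. The het mean was 5.70% ± 0.59 (SD, n = 3) and the WT mean 6.15% ± 0.073 (SD, n = 2), and the groups overlapped. The difference of −0.45 percentage points had an exact two-sided permutation p of 0.6, in a design where the smallest possible p is 0.2. Of the 87 tested members, 18 had all het TPM below both WT values (11.2% of all tested genes did) and 2, Rpl3 and Rpl4, had all het TPM above them (27.7% did). On log2(TPM + 1) the median log2 fold change of the members was −0.11, beside 0.10 over all tested genes, and 69 members were below 0.

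Small and large subunit genes kept nearly the same balance in every library. The log2 ratio of their summed TPM was −0.33, −0.34 and −0.35 in het 5, 6 and 7, and −0.36 and −0.35 in WT 7 and 8. The difference of 0.013 between the group means had an exact two-sided permutation p of 0.2, the smallest possible, and summed expected counts gave −0.0062 instead. The median log2 fold change was −0.31 in both the 35 small subunit and the 52 large subunit genes tested, with 34 and 51 of them below 0.

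Most members were abundant mRNAs: 80 of 88 had a mean of at least 100 TPM. Rpl13a, a large subunit protein also known from the GAIT complex that silences inflammatory mRNAs, led them. Its level was 2468, 2196 and 1874 TPM in het 5, 6 and 7, and 2609 and 2601 TPM in WT 7 and 8. All 3 het values lay below both WT values, and in CPM the log2 fold change was −0.51 ± 0.18 (SE; adjusted p = 0.097). Rplp1, an acidic protein of the stalk, had 2391, 2175 and 2184 TPM in het 5, 6 and 7 and 2386 and 2502 TPM in WT 7 and 8. Here het 5 reached above WT 7, and the log2 fold change in CPM was −0.39 ± 0.19 (adjusted p = 0.226). Rps14, which sits on the platform of the small subunit, had 2293, 1814 and 1587 TPM in het and 2353 and 2255 TPM in WT. As for the members at large, het 5 fell between the WT values (log2 fold change in CPM −0.47 ± 0.27, adjusted p = 0.347). Rps27, a zinc-finger protein of the small subunit, was highest in het 5, with 2411 TPM beside 1881 and 1625 TPM in het 6 and 7, and 1883 and 2008 TPM in WT. Its SE of 0.41 exceeded its log2 fold change of −0.28 in CPM, which was −0.012 without WT 7 and −0.70 without het 5.

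The members with the smallest p-values, Rpl13a (given above), Rps4l, Rplp2, Rpl8 and Rpl28, were separated between the groups in CPM, although none passed. They were picked by p on the counts, so their separation in CPM adds no further evidence. In TPM Rps4l overlapped, with 14.82 in het 7 and 14.81 in WT 8, and the others stayed separated. With length and GC trends removed the log2 fold changes were −0.054 (Rpl13a), −0.20 (Rps4l), −0.047 (Rplp2), 0.093 (Rpl8) and −0.090 (Rpl28). Rps4l, an autosomal relative of the X-linked Rps4x, had 11.02, 9.53 and 13.3 CPM in het 5, 6 and 7 and 18.4 and 16.3 CPM in WT 7 and 8. All 3 het values were lower, and the log2 fold change of −0.62 ± 0.18 had the smallest adjusted p of the members, 0.059. Rplp2, the stalk partner of Rplp1, had 92.3, 62.6 and 78.0 CPM in het and 119.5 and 103.2 CPM in WT. The groups did not overlap (−0.52 ± 0.16, adjusted p = 0.072). Rpl8, which lies close to the peptidyl transferase centre, had 325.7, 270.4 and 289.8 CPM in het and 375.6 and 389.0 CPM in WT. Its log2 fold change was −0.37 ± 0.14 (adjusted p = 0.108), again with no overlap. Rpl28 had 254.0, 176.3 and 209.6 CPM in het and 318.6 and 263.6 CPM in WT, and het 5 came within 10 CPM of WT 8 (−0.45 ± 0.16, adjusted p = 0.112). Rps2, at the entry of the mRNA channel, had a larger p than these and was among those called by DESeq2. It had 707, 634 and 677 CPM in het and 831 and 896 CPM in WT, where het 5 was the highest het library but stayed below both WT values. Its log2 fold change was −0.36 ± 0.14 (adjusted p = 0.120).

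At the other end, Rpl7l1 and Rps27rt had fold changes near 0. Rpl7l1 had 44.9, 31.96 and 45.2 CPM in het and 39.5 and 41.2 CPM in WT, so the WT values lay inside the het range (log2 fold change 0.01 ± 0.16). Rps27rt, a retrotransposed copy of Rps27, had between 0.93 and 1.88 CPM in all libraries and a log2 fold change of 0.02 ± 0.48. The lowest fold changes belonged to scarce genes as well: the retrotransposed Rpl35rt and the Rpl6-like Rpl6l both had −0.79, with SEs of 0.58 and 0.48 and levels under 2 CPM in all libraries. Reads of such copies and of their parent genes cannot be separated with certainty by the authors' counting, so these values are uncertain. Summing each member with its copies whose symbols end in -ps (295 symbols, 0.49% to 0.56% of the members' counts) moved no log2 fold change of a member by more than 0.0068.

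By place in the ribosome, no group of members held a called gene. The 5S ribonucleoprotein proteins Rpl5 and Rpl11, which carry 5S rRNA into the large subunit and can bind Mdm2, had log2 fold changes of −0.12 (adjusted p = 0.689) and −0.45 (adjusted p = 0.218). Without WT 8, Rpl5 had 0.033. The 4 genes of the stalk that recruits the GTPase factors had a median of −0.35. Its base proteins Rplp0 and Rpl12 had −0.25 (adjusted p = 0.285) and −0.31 (adjusted p = 0.279). The 9 genes listed for the polypeptide exit tunnel had a median of −0.25, and the 9 listed for the decoding centre and mRNA channel one of −0.30. A fixed list of 10 Diamond-Blackfan anaemia genes, which is not complete, had a median of −0.38. All of these genes were below 0, as were 85 of 87 members.

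The 4 X-linked members had the smallest shift of these groups, with a median of −0.17. Rpl10, which completes the tRNA sites of the large subunit, had 584.8, 485.5 and 433.7 CPM in het and 498.0 and 528.0 CPM in WT, so the groups overlapped (−0.03 ± 0.15). Rpl10 had 0.024 without WT 8 and 0.060 without het 7. Rps4x had 503.4, 440.9 and 387.2 CPM in het and 434.6 and 469.5 CPM in WT, and het 5 was the highest library for it too (−0.03 ± 0.15). It had 0.045 without WT 8 and 0.062 without het 7. Rpl36a and Rpl39 had −0.30 and −0.32, each with an SE of more than 0.30. Without WT 8 the WT side is WT 7 alone, the library with high Ddx3y (938) and low Xist (22) counts. No test was run of X-linked against other members.

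Some members varied more within a group than between groups. Rps27, Rpl38 and Rps21 had the largest dispersion estimates among members with a mean of at least 10 CPM. Rps21 had 104.3, 50.3 and 62.0 CPM in het and 126.2 and 78.5 CPM in WT, so each group spanned more than the difference of the means (−0.51 ± 0.41). Without WT 7 its log2 fold change was −0.12, and without het 5 it was −0.87. Rpl38, known for its part in translating patterning mRNAs in the embryo, had 47.2, 23.0 and 26.8 CPM in het and 54.7 and 32.3 CPM in WT (−0.43 ± 0.43, and 0.003 without WT 7). The lengths of these 3 mRNAs, 346, 368 and 395 bases for Rps27, Rpl38 and Rps21, are among the shortest of the members.

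Length separated the members among themselves. Their median transcript length was 697 bases, against 2519 bases over all tested genes. Ordered by length and cut into 3 equal parts, the shortest members had a median log2 fold change of −0.38, the middle ones −0.32 and the longest −0.25. Across members, Spearman's rho between length and fold change was 0.40 (n = 87 genes that share the same 5 libraries, given as a description). The mean fragment length read from RSEM's effective lengths was 377, 430 and 395 bases in het 5, 6 and 7 and 343 and 412 bases in WT 7 and 8, so WT 7 had the shortest fragments and het 6 the longest. The effective length of Rps27 followed it, from 59.8 bases in WT 7 to 31.8 bases in het 6, whereas that of Rpl3, a long member, went from 967 to 897 bases. With each library's effective lengths as offsets, an analysis added after seeing the data, rho fell to 0.12 and the median was −0.24, with 84 of 87 members below 0 (50.2% of all tested genes were) and 0 called (0.158% of all tested genes were). With smooth trends of length and GC content taken out of each library, the median of the members was 0.04, 50 were above 0 and 37 below (52.3% of all tested genes were below 0), and rho was −0.26. After that step 0.0305% of all tested genes were called. The direction of the members' shift therefore depended on whether a trend with length across all genes was removed. The part of fragment length in the shift was not tested.

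**Figure D3:**
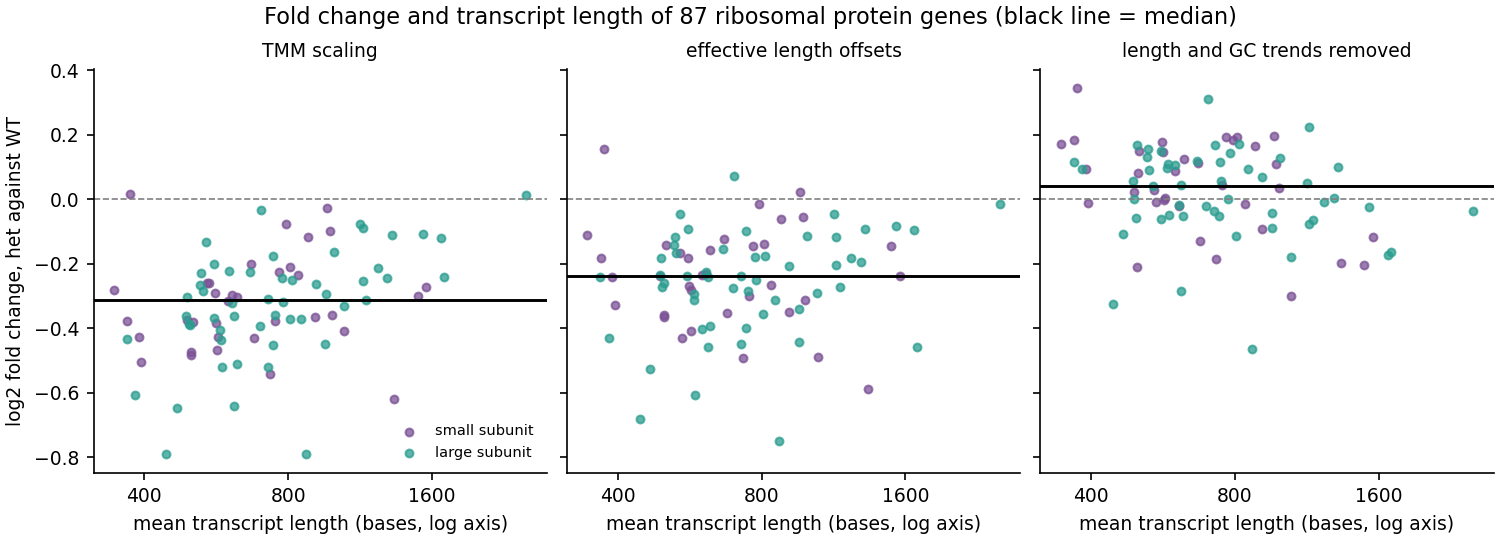
Log2 fold change, het against WT, of each of the 87 ribosomal protein genes (vertical axis) against its mean transcript length in bases (horizontal log axes), coloured by subunit, with TMM scaling, with effective length offsets and with length and GC trends removed; black lines mark the medians. Points rise from short to long genes with TMM scaling (Spearman's rho 0.40, median −0.31), less so with effective lengths (0.12, −0.24), and fall once the trends are removed (−0.26, 0.04).

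Several members have a paralogue, and the share of the pair's summed TPM held by the paralogue was compared in 6 pairs. Whether each paralogue takes its parent's place in the ribosome was not tested. With 3 against 2 libraries the exact permutation p cannot go below 0.2, so these comparisons cannot pass a threshold of 0.05 and are given as values. Rpl22 is an RNA-binding protein of the large subunit known to restrain Rpl22l1 at the RNA level. Rpl22l1 came closest to a difference: it held 37.6%, 43.8% and 41.6% of the pair with Rpl22 in het 5, 6 and 7, and 31.9% and 37.4% in WT 7 and 8. Every het share lay above both WT shares, het 5 by less than 0.5 percentage points over WT 8. The difference was 6.34 percentage points, with an exact two-sided permutation p of 0.2, the smallest possible, and an adjusted p of 0.8. Made from expected counts, the difference was 1.23 points. In CPM Rpl22 had 117.6, 99.3 and 91.3 in het and 127.9 and 111.9 in WT, and Rpl22l1 had 53.4, 40.7 and 43.2 in het and 47.2 and 53.2 in WT, so the levels of each gene overlapped between groups.

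Rpl3l, the striated muscle form of Rpl3, held a small and even share. It took 3.21%, 4.09% and 3.75% of the pair in het and 3.43% and 4.02% in WT, and both groups covered the same range (difference −0.044 points, exact permutation p = 1). The difference was 0.191 points without het 5 and 0.248 points without WT 8. Rpl3 itself, which reaches into the peptidyl transferase centre, had 472, 463 and 462 TPM in het and 452 and 449 TPM in WT. Its het values were all higher in TPM, while in CPM its log2 fold change was −0.11 ± 0.14 with overlapping groups. Rps27l, a p53-induced form of Rps27, held 7.82%, 7.55% and 9.85% in het and 9.06% and 10.3% in WT. The difference was −1.27 points (exact permutation p = 0.4, adjusted p = 0.8), and het 7 lay between the WT shares. Rps4l held 1.32%, 1.27% and 2.05% of its pair with Rps4x in het and 2.59% and 2.04% in WT, with het 7 just above WT 8 (−0.77 points, exact permutation p = 0.4). Rpl36al held close to equal parts with Rpl36a, at 50.5%, 49.6% and 52.9% in het and 52.9% and 48.6% in WT. Rpl7l1 held between 3.31% and 5.67% of its pair with Rpl7 and was both lowest and highest in het.

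**Figure D4:**
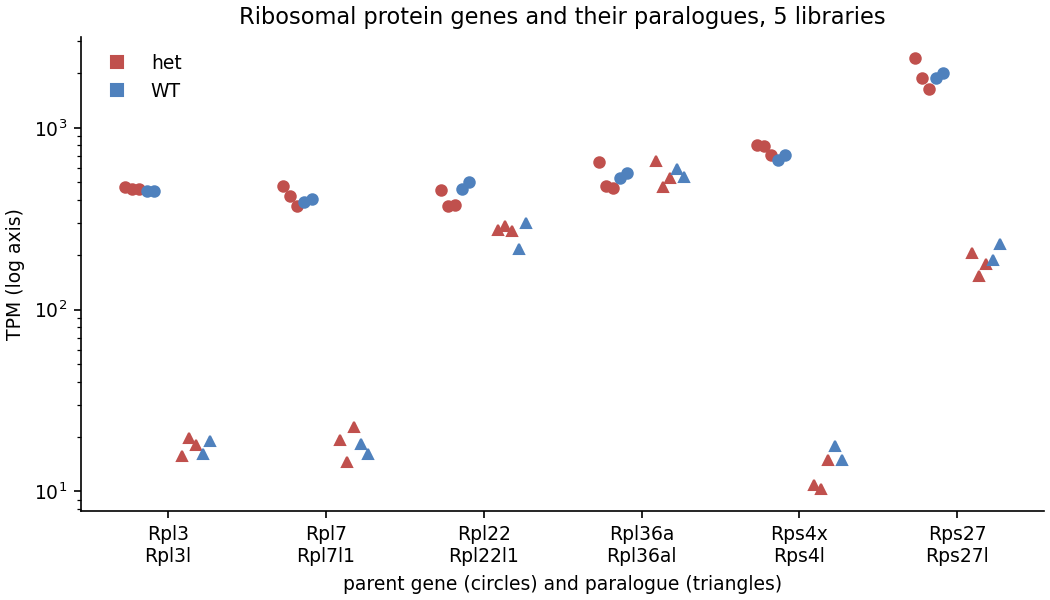
Level in TPM (vertical log axis) of 6 parent genes (circles) and their paralogues (triangles) in each het and WT library, in the order het 5, 6, 7 and WT 7, 8. Rpl22l1 and Rpl36al reach levels near those of their parents, the other 4 paralogues lie far below theirs, and het and WT points of every paralogue overlap.

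Most members were carried by 1 transcript. Here transcripts were ranked by their mean share of the gene's expected counts, not by TPM. In 48 members the first transcript held at least 90% of those counts, and in 31 the second held at least 10%. The share of that other transcript was lower in all het libraries in 6 of these 31 and higher in 3, against 16.1% and 14.7% of 7143 tested genes with such a transcript, so both counts are near the background. Rps23, a protein of the decoding centre, was one of the 6: its ENSMUST00000224463 held 22.2%, 12.9% and 14.1% in het and 23.1% and 24.3% in WT. The difference of −7.28 points had an exact permutation p of 0.2 (adjusted p = 0.689 over the 31). For Rpl3l, ENSMUST00000170239 held 42.2%, 61.4% and 37.6% in het and 27.9% and 43.6% in WT, a difference of 11.4 points within the spread (exact permutation p = 0.6). For Rpl22, ENSMUST00000188151, of 2048 bases, held 48.8%, 40.7% and 30.0% in het and 18.7% and 45.8% in WT. The difference of 7.54 points (exact permutation p = 0.6) became −6.02 without WT 7, and 2.00 when made from TPM.

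Fau and Rack1, which are ribosomal proteins with other kinds of symbol, were below 0 as well. Fau, which is made as a fusion with a ubiquitin-like protein, had a log2 fold change of −0.49, and Rack1, a signalling scaffold on the small subunit, had −0.21. Neither was called. Among 17 other translation genes known for oligopyrimidine tracts, mostly elongation and initiation factors, 0 were called and the median was −0.04, with 8 above and 9 below 0. Tpt1, one of the most abundant mRNAs of this class, had −0.22 (adjusted p = 0.382). The median of the members with a tract at base 1 was −0.32 (n = 10), and that of the others −0.31 (n = 78, which includes Rpl37rt without a value).

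Of the 55 genes in 3 lists of the machinery that makes and controls ribosomes, 4 passed, beside 5.64% of all tested genes. Of 28 ribosome biogenesis factors 0 were called, with a median of −0.006, 13 above and 15 below 0. Rrp1, a nucleolar factor of large subunit maturation, had −0.32 (adjusted p = 0.118). Of 13 genes of RNA polymerase I and its factors, 1 was called higher: Polr1b, a core subunit of the polymerase that transcribes rRNA. It had 16.5, 16.0 and 16.5 CPM in het and 10.0 and 11.04 CPM in WT, with a log2 fold change of 0.64 ± 0.16 (adjusted p = 0.042). All het values were higher than both WT values and close together. Of 14 genes of mTORC1 and the control of tract-bearing mRNAs, 1 was called higher and 2 lower. Eif4ebp1, a repressor of cap-dependent translation that mTORC1 inactivates, had 64.2, 64.7 and 62.5 CPM in het and 95.5 and 85.2 CPM in WT (−0.50 ± 0.12, adjusted p = 0.036). Akt1s1, the mTORC1 inhibitor also called PRAS40, had 56.2, 48.9 and 55.3 CPM in het and 74.7 and 75.7 CPM in WT (−0.49 ± 0.12, adjusted p = 0.041). Eif4ebp2, a relative of Eif4ebp1 named here because its value was seen to pass, had 155.7, 147.2 and 161.4 CPM in het and 104.9 and 116.8 CPM in WT (0.48 ± 0.13, adjusted p = 0.047). Of these 4 genes none passed in limma-voom, in log2 TPM or with length and GC trends removed. Each lost its call when any single het library was left out. With length and GC trends removed, the log2 fold changes were 0.58 for Polr1b, −0.47 for Eif4ebp1, 0.28 for Eif4ebp2 and −0.02 for Akt1s1.

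Cell type markers moved between the same libraries. The 7 atrial cardiomyocyte markers had a median log2 fold change of −0.58, with 6 below 0, 2 called lower and 0 called higher, beside the −0.31 of the members. All 5 erythroid markers were detected, with summed levels of 19995, 12774 and 11766 TPM in het 5, 6 and 7 and 2048 and 8750 TPM in WT 7 and 8. Het 5, with the highest erythroid sum, had the highest share of TPM in the members (6.37%), while WT 7, with the lowest erythroid sum, came next (6.20%). In CPM the highest median of the members was that of WT 7. All 5 fibroblast markers were detected, with summed levels of 815 to 901 TPM in het and 490 and 715 TPM in WT. By gene, 3 fibroblast markers had log2 fold changes above 0 and 2 below, with 1 called higher and 0 lower. All 5 macrophage markers were detected too, summing to 139 to 175 TPM in het and 119 TPM in both WT libraries. All 5 macrophage markers were above 0, with 1 called higher. The 4 smooth muscle markers summed to 53.3 to 81.5 TPM in het and 99.7 and 99.0 TPM in WT, and all 4 had log2 fold changes below 0, with 1 called lower. The 3 lung epithelium markers summed to at most 0.93 TPM, with 1 of them at 0 in every library. The 3 ventricular cardiomyocyte markers summed to 163, 527 and 125 TPM in het 5, 6 and 7 and 226 and 281 TPM in WT 7 and 8. Adipocyte markers summed to 4.04, 9.36 and 94.9 TPM in het 5, 6 and 7 and 14.55 and 37.4 TPM in WT 7 and 8. RNA of neighbouring tissue thus may differ between libraries, which was not tested. The part of cell makeup in the members' levels was not tested.

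In the authors' deposited table, het against WT, the members lay on the other side of 0. That table gives 75 of 88 members a log2 fold change above 0 and 13 below, where 44.3% of its 14927 genes are above 0. Their median in the authors' deposited table is 0.22, beside −0.03 over all its genes, with a range of −0.17 to 0.92. The table calls 0 members and 0% of all genes at an adjusted p under 0.05, and the smallest adjusted p of a member is 0.878. At an unadjusted p under 0.05 the authors' deposited table has 1 member, Rpl37rt, with 0.92, against 5.6% of all genes. The interval of all 88 members in the authors' deposited table includes 0, and the level of that interval is not stated there. For Rpl37rt it runs from −0.15 to 1.98, although its p-value in the authors' deposited table is 0.048. What those p-values test is not stated either, so they need not test the same as those of edgeR. Next to Rpl37rt, the highest values in the authors' deposited table are those of Rpl35rt and Rpl6l, both 0.75, which are retrotransposed or related copies with few counts here. The lowest in the authors' deposited table are Rps2 and Rps4l, both −0.17, and Rpl7a with −0.14. Rps4l also had the smallest p of the members in the 5 libraries. Of the members next to it by p there, Rplp2, Rpl13a and Rpl28 are above 0 in the authors' deposited table, with 0.014, 0.036 and 0.26. Rpl8 is below 0 in the authors' deposited table, with −0.053. In all, 73 members are above 0 in the authors' deposited table and below 0 in the edgeR comparison of 3 het and 2 WT libraries. The table has no sample columns, and which libraries entered it is not given in the sources used here, so the difference between the comparisons was not tested.

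**Figure D5:**
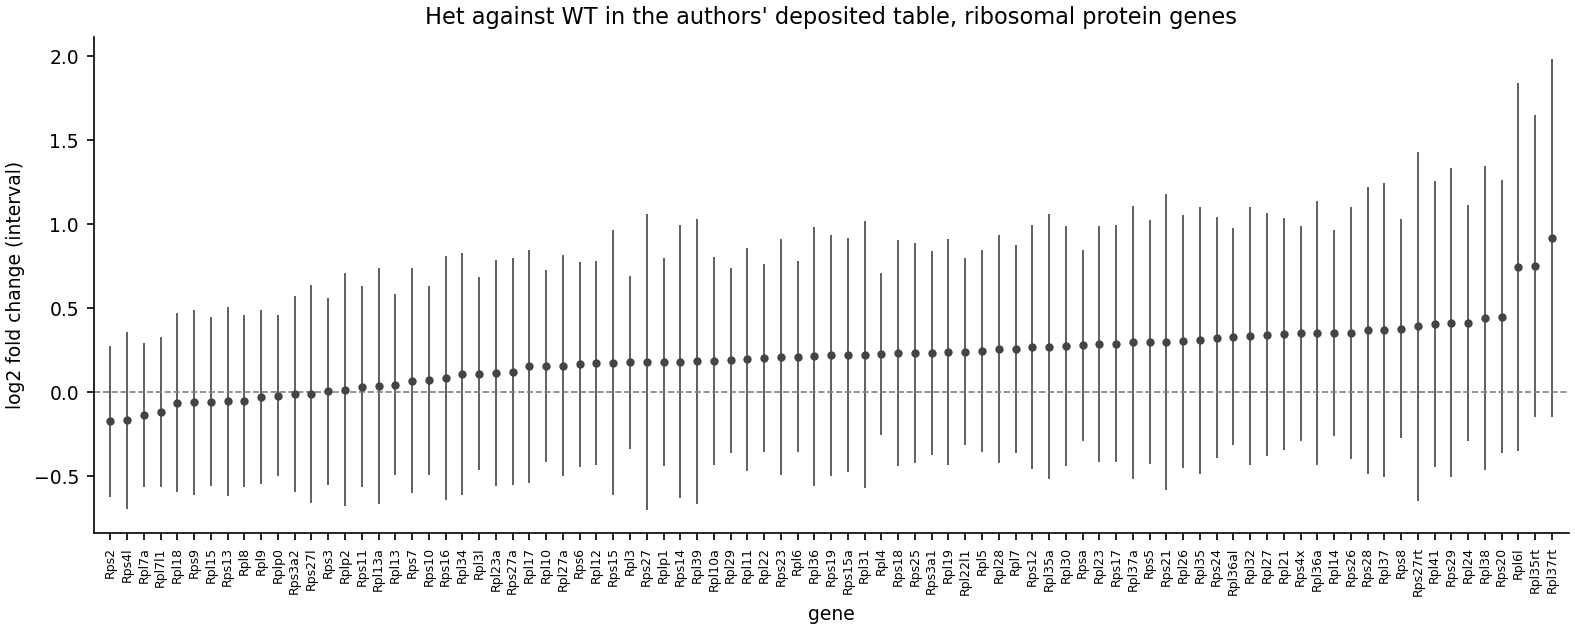
Log2 fold change, het against WT, with its deposited interval (level not stated), of 87 ribosomal protein genes in the authors' deposited table, ordered by value along the horizontal axis. Most points, 74, lie above 0, and the interval of every gene drawn includes 0.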

How the data were processed

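Stranded polyA libraries were made from atrial RNA, per the labels' protocols. The submitters' processing notes list STAR, RSEM, limma, edgeR and GRCm39 but no versions. The deposited RSEM tables hold expected counts, which the authors did not normalize, per the file headers. The deposited TPM values were scaled by the authors to effective length and library total. The FPKM values that the authors deposited beside them were not used. The isoform percent that the authors deposited was not used: transcript shares are percents of a gene's expected counts. The authors' deposited table holds log2 fold changes, scores (t, of which 65.5% are 0) and p-values.

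Expected counts were rounded. Of 57186 genes, 16412 passed filterByExpr and were tested with edgeR 4.0.16 (R 4.3.3): TMM, robust quasi-likelihood test, Benjamini-Hochberg adjustment, threshold 0.05, biological coefficient of variation 0.18. SE is the absolute log2 fold change over the square root of F. Every gene-level adjusted p is from edgeR unless another tool is named. Single values were compared by exact two-sided permutation over 10 splits, and p-values were adjusted over 6 paralogue pairs or 31 transcripts. DESeq2 1.42.0, limma 3.58.1 and mgcv 1.9.3 served for alternatives. The tests were tried on simulated counts with known changes. Without a length trend, edgeR made 165 calls, of which 5 were false. With a simulated length trend, put equally into every het library and no WT library, it made 816 calls, of which 646 were false. With length and GC trends removed, the same counts gave 182 calls, of which 12 were false. That step removes the kind of trend that was put in, so the drop follows from the setting. The real libraries differ one by one in fragment length, so the simulation does not measure their false calls. The share of false calls among the edgeR calls in these libraries is not known.

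The members and the gene lists were chosen with earlier results of these data known. Named genes were the most abundant members, those with the smallest p in each direction, the extremes of the authors' deposited table, the largest dispersions and transcript changes, the paralogues and 10 genes from the lists. Libraries are separate animals per the labels. Sequences are from GENCODE M21. Values of some genes are not reported here.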

Additional observations from a re-analysis of the deposited data

How the results depend on the processing

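Members called by the test numbered 0 with TMM, 4 in DESeq2, 9 when no count filter was used and 0 under the other alternatives run. The median of the members kept its direction except where the trends of length and GC (0.040) or of length alone (0.037) were removed. Of the related lists, 4 genes were called in the main comparison, 10 in DESeq2, 11 without the count filter, 1 with effective length offsets and 0 in limma-voom, log2(TPM + 1), log2(TPM + 0.1) and both trend removals. Leaving out single libraries gave 0 to 4. Over all tested genes, TMM called 490 higher and 436 lower, upper-quartile scaling 327 and 568, and library size alone 795 and 391. The log2 ratio of small to large subunit TPM changed from 0.013 to −0.0062 with expected counts, and the share of Rpl3l to 0.057 points. With 3 against 2 libraries, differences of the size seen in most members lay within 2 SEs. No paired analysis was run, because the labels name no pairs of animals, and the number 7 shared by het 7 and WT 7 is not one.

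Log2 fold changes of named genes changed sign as follows, and the cause was not tested. With length and GC trends removed they were 0.17 for Rplp1, 0.17 for Rps27, 0.093 for Rpl8, −0.035 for Rpl7l1, 0.22 for Rpl3l, 0.040 for Rpl22l1, 0.092 for Rpl36al, 0.035 for Rps2, 0.069 for Rpl7a, 0.12 for Rpl38, 0.11 for Rpl22, 0.0052 for Rplp0, 0.31 for Rpl10, 0.20 for Rps4x, 0.10 for Rpl3, 0.055 for Tpt1 and 0.095 for Fau. With the length trend alone removed they were 0.041 for Rplp1, 0.16 for Rps27, −0.011 for Rpl7l1, 0.17 for Rpl3l, 0.29 for Rpl22l1, 0.13 for Rpl36al, 0.059 for Rpl7a, 0.040 for Rpl38, 0.19 for Rpl22, 0.093 for Rps23, 0.0055 for Rpl5, 0.35 for Rpl10, 0.28 for Rps4x, 0.10 for Rpl36a, 0.055 for Rpl39, 0.098 for Rpl3 and 0.090 for Tpt1. On both log2(TPM + 1) and log2(TPM + 0.1) they were 0.0012 for Rps27, 0.12 for Rpl22l1, 0.038 for Rpl5, 0.22 for Rpl10, 0.16 for Rps4x and 0.048 for Rpl3, and 0.026 and 0.028 for Rpl3l. Rpl10 and Rps4x had 0.071 and 0.022 with effective length offsets, 0.014 and 0.021 when no count filter was used, and 0.0096 and 0.017 with library size alone. Rpl7l1 had −0.014 with effective length offsets, −0.0020 in limma-voom, −0.0056 with a mean of at least 1 CPM and −0.030 with upper-quartile scaling. Rps27rt had −0.075 in limma-voom, −0.0028 with a mean of at least 1 CPM and −0.025 with upper-quartile scaling.

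Leaving out single libraries, the log2 fold change ranged from −0.070 to 0.16 for Rpl7l1, −0.33 to 0.22 for Rps27rt, −0.26 to 0.11 for Rpl3l, −0.81 to 0.0029 for Rpl38, −0.24 to 0.033 for Rpl5, −0.16 to 0.060 for Rpl10 and −0.12 to 0.062 for Rps4x. The difference in paralogue share ranged from −0.337 to 0.248 points for Rpl3l, −0.533 to 0.648 for Rpl7l1 and −1.88 to 2.43 for Rpl36al, and that of the Rpl22 transcript from −6.02 to 21.1 points. Among the changes in single genes, 73 were of sign, 44 were lost calls and 9 were gained calls, and 575 kept direction and call.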

Other observations

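Ribosomal protein paralogues known from the testis were near silent in the atria. Rpl10l, the autosomal copy of the X-linked Rpl10, had an expected count of 0 in all 5 libraries, which allows up to 3 counts, or 0.106 CPM in the deepest library (het 7) and 0.169 CPM in the shallowest (WT 8). Rpl39l, the copy of Rpl39, had 1 or 2 counts per library, in both groups. These limits cover counting error only. The retrotransposed Rpl37rt had expected counts of 4.97, 1.44 and 3.04 in het 5, 6 and 7 and 1.82 and 0.81 in WT 7 and 8, so its value in the authors' deposited table could not be set against a test here.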
